A study of Rattus norvegicus with 15 samples.

Results

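Cortex from rats on a salt-deficient diet was compared with cortex from rats on a high-salt diet in a strain that forms kidney cysts, using 5 libraries labelled 0.01% NaCl and 5 labelled 4% NaCl out of 15 small RNA libraries in all, with every miRNA name of the count table taken as a member. The remaining 5 libraries, labelled 0.4% NaCl, stood between them in salt content. All rats were of the strain PCK/CrljCrlPkhd1pck/CRL, which carries a mutated Pkhd1 gene and serves to model recessively inherited cystic kidneys. A strain without cysts was not analysed here. Rats received their Dyets chow from 6 weeks of age and were kept on it for 8 weeks, with no other treatment. The labels' protocol also speaks of pools of 2 to 3 rats and 2 pools per condition, and it does not say which library came from which pool or animal. The p-values below therefore measure the spread between these libraries, which may be in part technical. The series concerns the effect of dietary salt on the cystic kidney.

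A mature miRNA is a short RNA cut from 1 arm of a hairpin, and it lowers the stability or translation of messenger RNAs that pair with its seed, the stretch from base 2 to base 8. The names -5p and -3p mark the arm. In the kidney, miR-192 and miR-194 are typical of tubule epithelium, miR-30 family members of the nephron including podocytes, miR-143 and miR-145 of smooth muscle and other mural cells, and miR-21 builds up in injured, fibrotic and cystic kidneys. Salt intake sets the level of renin, angiotensin and aldosterone, which govern how much sodium the tubule takes back.

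The table held 600 names, 445 of rat and 155 of other species, and 519 had enough reads to be tested (397 rat names and 122 of other species). Libraries held 5.77 to 7.83 M reads on 0.01% NaCl and 4.17 to 5.42 M on 4% NaCl, so each 0.01% library was deeper than each 4% library. Levels are given as scaled CPM, meaning counts per M reads after the library sizes were multiplied by edgeR's TMM factors, which lay between 0.781 and 1.11 over these 10 libraries. miR-10a-5p took more reads than any other name in all of them. By mean level over the 10 libraries, miR-192-5p ranked 5, miR-194-5p ranked 49 and miR-451-5p of red blood cells ranked 309. These ranks do not stand for other names of the same kinds. The kidney-enriched miR-215 averaged 7.63 scaled CPM on each of the diets compared. hsa-miR-486-5p, a red blood cell name, averaged 543 on 0.01% NaCl and 356 on 4% NaCl. A name is called when the Benjamini-Hochberg adjusted p of edgeR's quasi-likelihood test over all 519 names is under 0.05. Fold changes are 0.01% over 4% NaCl, and so are positive where the name was higher on the salt-deficient diet.

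The sequences of the leading called names are shown so that their seeds can be compared. They are RefSeq mature sequences for GRCr8, written 5′ to 3′, with the seed in capitals. RefSeq gave a sequence for 403 of the 445 rat names. Higher on 0.01% NaCl were the following.
miR-205: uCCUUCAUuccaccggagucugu
miR-9a-5p: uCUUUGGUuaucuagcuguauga
miR-21-3p: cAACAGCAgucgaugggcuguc
miR-21-5p: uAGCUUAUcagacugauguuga
miR-143-3p: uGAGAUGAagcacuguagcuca
miR-141-3p: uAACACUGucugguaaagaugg
miR-200c-3p: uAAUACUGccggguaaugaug
miR-542-3p: uGUGACAGauugauaacugaaa
miR-181c-5p: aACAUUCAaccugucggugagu
miR-181d-5p: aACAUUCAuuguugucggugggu
miR-351-5p: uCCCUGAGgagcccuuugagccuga
Lower on 0.01% NaCl were the following.
miR-592: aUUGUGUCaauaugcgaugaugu
miR-494-3p: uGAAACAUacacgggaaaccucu
miR-184: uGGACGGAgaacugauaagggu
miR-411-5p: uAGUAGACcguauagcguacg
miR-541-5p: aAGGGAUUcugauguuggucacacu
miR-489-3p: aUGACAUCacauauauggcagc
miR-653-5p: uUGAAACAuucucuacugaac
miR-125a-5p: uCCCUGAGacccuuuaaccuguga
Most called rat names had a seed that no other called name shared. The 74 called rat names with a sequence held 72 distinct seeds, and 2 seeds were held by more than 1 called name. miR-181c-5p and miR-181d-5p share ACAUUCA and were both higher. miR-351-5p and miR-125a-5p share CCCUGAG and went in opposite directions, miR-351-5p being higher and miR-125a-5p lower.

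On the salt-deficient diet 106 of the 519 names differed from the high-salt diet (20.4%), with 38 higher (7.32%) and 68 lower (13.1%). Higher were both arms of miR-21, miR-143-3p, miR-205, miR-9a-5p, both arms of miR-141 and miR-200c-3p, and lower were most tested names of the Dlk1-Dio3 cluster, the miR-203 locus, miR-592 and miR-184. Among the higher names the median level was 105.5 scaled CPM, the median log2 fold change was 0.75, 9 names exceeded 1000 scaled CPM and 10 differed at least 2-fold. Among the lower names the median level was 26.3 scaled CPM, the median size of the log2 fold change was 1.18, 7 names exceeded 1000 scaled CPM, 25 were under 10 and 42 differed at least 2-fold. The median log2 fold change of all 519 names was -0.01, and 185 had an unadjusted p under 0.05. In reads, the 38 higher names took 49.2 ± 7.11% of a library on 0.01% NaCl and 38.2 ± 0.791% on 4% NaCl (mean ± SD, n = 5 each), and the 68 lower names took 7.19 ± 1.32% on 0.01% NaCl and 10.7 ± 0.476% on 4% NaCl.

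The balance of higher and lower names depended on how libraries were scaled. With library totals only, 14 names were higher and 117 lower, where the median log2 fold change of all names was -0.25, beside 38 higher and 68 lower with TMM factors. No called name changed sign under that or any other alternative. With library totals only, however, most calls of higher names were lost. Among those lost were miR-21-5p, miR-10a-5p, miR-30a-5p, miR-25-3p, miR-27a-5p, miR-145-3p, miR-187-3p and miR-224-5p. So were miR-31a-5p, miR-322-5p, miR-351-5p, miR-450a-5p, miR-542-5p and both arms of miR-181c. After all libraries were thinned to the smallest total, 37 were higher and 53 lower. The libraries did not overlap between the diets for 76 of the 519 names (14.6%), with those on 0.01% NaCl all above for 26 names (5.01%) and all below for 50 (9.63%). Of these 76 names 62 were called, 18 higher and 44 lower.

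**Figure D1:**
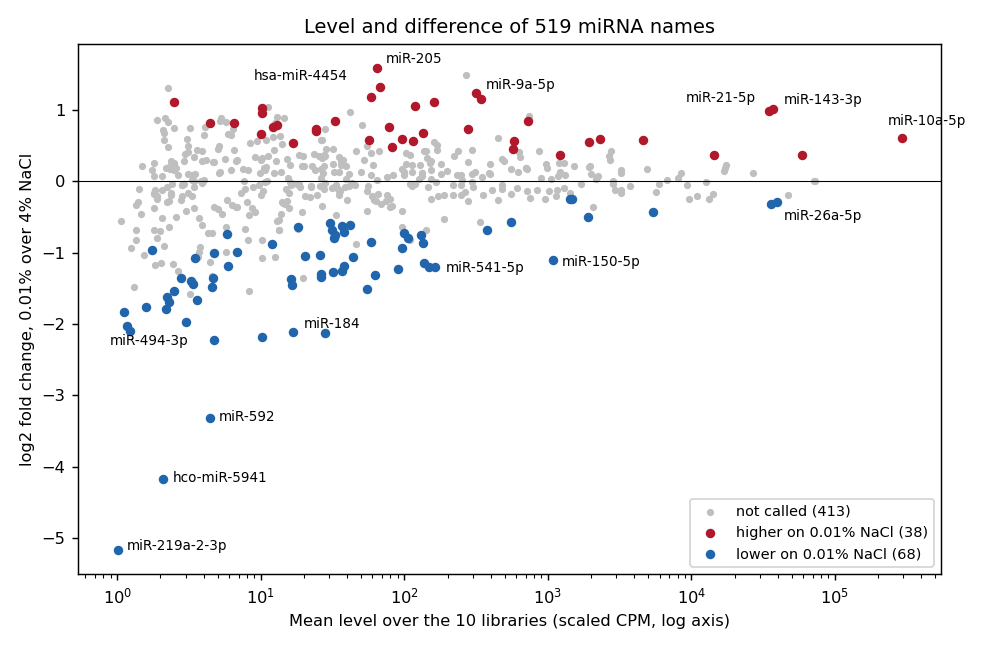
Each point is 1 of 519 miRNA names, placed by its mean level over the 10 libraries (scaled CPM, log axis) and by its log2 fold change, 0.01% over 4% NaCl. The 38 names called higher (red) reach 1.59 for miR-205, and among the 68 called lower (blue) miR-592 is at -3.32, with hco-miR-5941 and miR-219a-2-3p below it.

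The most abundant names that were higher on 0.01% NaCl were miR-10a-5p, miR-30a-5p, miR-143-3p and miR-21-5p. miR-21-5p, a miRNA that builds up when the kidney is injured, was at 48380, 39660, 42110, 37920 and 61910 scaled CPM in the 0.01% libraries, against 28200, 27200, 24130, 27280 and 9655 in the 4% libraries. All 5 libraries on 0.01% NaCl lay above all 5 on 4% NaCl, and 4% library 5 stood far below the other 4. Its log2 fold change was 0.98 ± 0.26 (SE, adjusted p = 0.0158), and the name stayed called without that library. With library totals only it was 0.71 and not called. The other arm, miR-21-3p, was at 488, 308, 347, 411 and 811 scaled CPM on 0.01% NaCl and 220, 230, 240, 273 and 102 on 4% NaCl. Its libraries did not overlap either, and the log2 fold change was 1.15 ± 0.29 (SE, adjusted p = 0.012).

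miR-143-3p, typical of smooth muscle, was at 50960, 39920, 41150, 44770 and 71200 scaled CPM on 0.01% NaCl and 23400, 25060, 28290, 22870 and 23680 on 4% NaCl. The groups were well separated, and the 4% libraries were close together (log2 fold change 1.01 ± 0.18 SE, adjusted p = 0.00281). The miR-143 and miR-145 hairpins lie next to each other on rat chromosome 18. Of their 4 tested names 2 were higher and 2 were not called, against 7.32% higher among all names. The list median was 0.61. The summed level of the 4 names was 40378 to 72365 scaled CPM on 0.01% NaCl and 23371 to 28945 on 4% NaCl. In whole cortex, more cells of a type and more RNA per cell cannot be told apart. miR-145-3p, at 116 ± 27.9 scaled CPM on 0.01% NaCl and 76.5 ± 15.8 on 4% NaCl (mean ± SD, n = 5 each), was called (log2 fold change 0.60 ± 0.18 SE, adjusted p = 0.0272), in 10 of 15 refits that each left out 1 library as well.

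miR-10a-5p, encoded within a Hox gene cluster, was at 370200, 346700, 294700, 245200 and 515700 scaled CPM on 0.01% NaCl and 227900, 225500, 246300, 214000 and 250300 on 4% NaCl. The 0.01% libraries were spread widely and 0.01% library 4 lay within the 4% range. The log2 fold change was 0.61 ± 0.20 (SE, adjusted p = 0.0446), and the call held in 5 of the 15 refits without 1 library and was lost with limma-voom and upper-quartile factors. miR-30a-5p, a nephron miRNA of the miR-30 family, averaged 66611 ± 9407 scaled CPM on 0.01% NaCl and 51531 ± 4966 on 4% NaCl (log2 fold change 0.37 ± 0.12 SE, adjusted p = 0.0348), and its call held in 6 of the 15. The other 10 tested names of the miR-30 family and the other 9 of the miR-10 and miR-196 list were not called. Of the kidney-enriched names, miR-192-5p averaged 43946 ± 8275 scaled CPM on 0.01% NaCl and 50466 ± 13877 on 4% NaCl and was not called. miR-194-5p, which has a hairpin beside that of miR-192 and another beside that of miR-215, was lower, at 1567 ± 247 on 0.01% NaCl and 2212 ± 454 on 4% NaCl (log2 fold change -0.50 ± 0.14 SE, adjusted p = 0.0201). It was the only called name of the 5 tested in the miR-192, miR-194 and miR-215 list, and its call was lost without 4% library 5.

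Epithelial miRNAs moved in both directions. miR-205, known from stratified and glandular epithelia, had the largest increase of the called names, at 78.6, 98.7, 86.2, 40.1 and 179 scaled CPM on 0.01% NaCl and 46.9, 33.7, 37.7, 32.2 and 9.93 on 4% NaCl. The highest 0.01% library was well above the rest and 0.01% library 4 fell within the 4% range (log2 fold change 1.59 ± 0.40 SE, adjusted p = 0.013). miR-203, which restrains the growth of skin keratinocytes, went the other way. Each of the 4 names of its locus was lower, against 13.1% lower among all names. miR-203b-3p was at 69.1, 88.0, 58.6, 110 and 104 scaled CPM on 0.01% NaCl and 143, 142, 227, 155 and 285 on 4% NaCl, with no overlap, and the log2 fold change was -1.15 ± 0.23 (SE, adjusted p = 0.00369). miR-203a-3p, the most abundant of the 4, averaged 290 ± 34.4 on 0.01% NaCl and 465 ± 143 on 4% NaCl (log2 fold change -0.68 ± 0.22 SE, adjusted p = 0.0384). It stayed called in 7 of the 15 refits without 1 library, and was not called with DESeq2 size factors, with no filter, by limma-voom or without the 5 most abundant names.

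The miR-200 family, which keeps epithelial cells in their state by repressing Zeb1 and Zeb2, had 3 of 8 tested names higher and none lower, against 7.32% higher among all names, with a median of 0.15. miR-141-3p was at 1092, 867, 891, 671 and 1187 scaled CPM on 0.01% NaCl and 451, 529, 701, 473 and 463 on 4% NaCl. miR-200c-3p was at 189, 155, 166, 88.3 and 208 scaled CPM on 0.01% NaCl and 71.5, 67.2, 99.9, 76.8 and 71.0 on 4% NaCl. For both names 4 of the 5 libraries on 0.01% NaCl lay above all on 4% NaCl. The log2 fold changes were 0.85 ± 0.20 (SE, adjusted p = 0.00988) for miR-141-3p, and 1.06 ± 0.24 (SE, adjusted p = 0.00692) for miR-200c-3p. With miR-141-5p (log2 fold change 1.02 ± 0.24 SE, adjusted p = 0.00988) these were the 3 tested names of the locus on chromosome 4, and all 3 were higher. The 5 other tested names of the family were not called. Whether the family's loci differed from each other was not tested.

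miR-9a-5p, best known from neural progenitors, was at 567, 468, 470, 252 and 469 scaled CPM on 0.01% NaCl and 160, 180, 266, 189 and 151 on 4% NaCl. The 0.01% libraries 1, 2, 3 and 5 lay above all 4% libraries, and 0.01% library 4 lay below 4% library 3 (log2 fold change 1.24 ± 0.27 SE, adjusted p = 0.00692). miR-9b-3p, complementary to it, was also higher (log2 fold change 1.19 ± 0.33 SE, adjusted p = 0.0193), except in refits without 0.01% library 1 or 5, and the remaining name of the family was not called. Among all names 7.32% were higher and 13.1% lower. Of the 12 tested neural and endocrine names, 2 were higher, both of them miR-9 names, and 1 was lower. That name, miR-219a-2-3p, had 1 read in all on 0.01% NaCl and 52 on 4% NaCl, a ratio of 0.0171 with an exact 95% interval of 0.000425 to 0.0996 that covers counting error only. In 1 of the 4% libraries no read was found, and the call held in 6 of the 15 refits without 1 library.

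**Figure D2:**
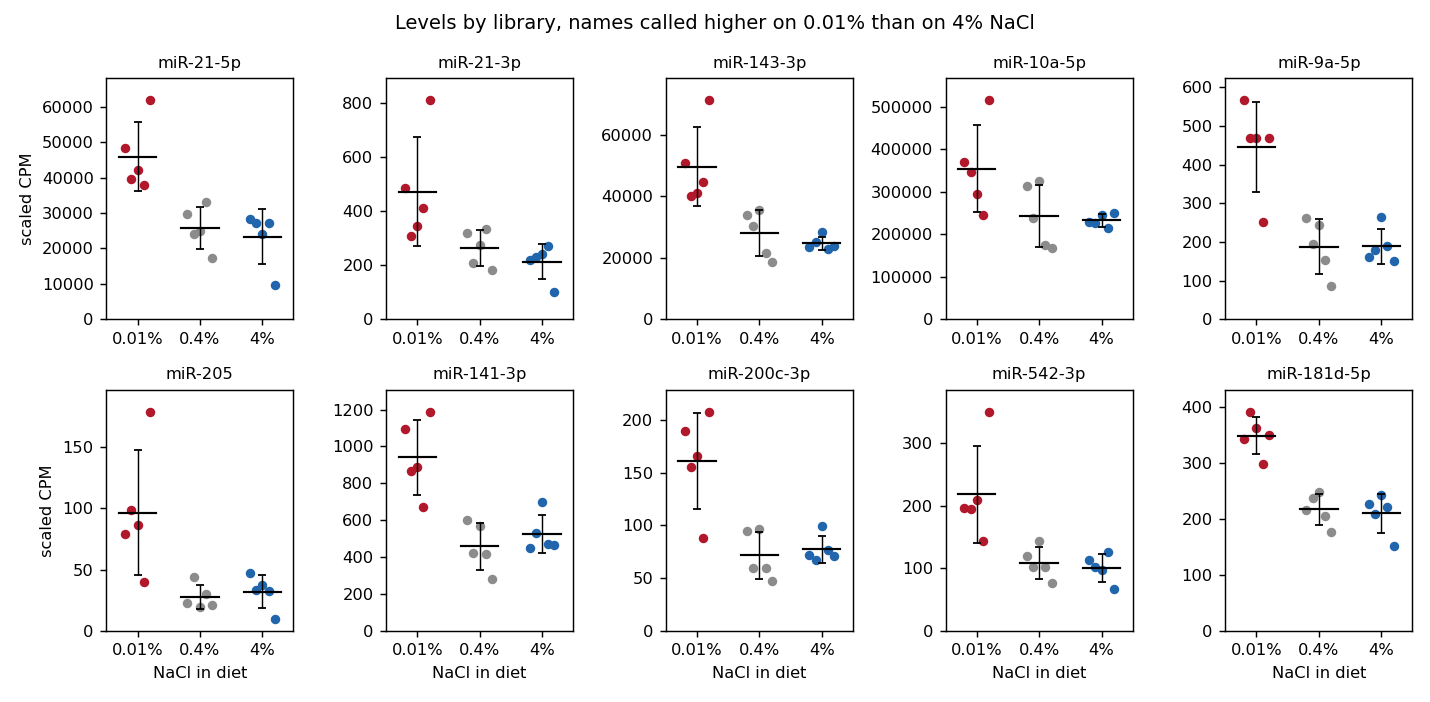
Scaled CPM of 10 names called higher on 0.01% than on 4% NaCl, by diet, with 1 point per library (n = 5 per diet), a line at the mean and bars of 1 SD. The 5 libraries on 0.01% NaCl lie above all 5 on 4% NaCl for miR-21-5p, miR-21-3p, miR-143-3p, miR-542-3p and miR-181d-5p. The 0.4% means lie nearer to the 4% means than to the 0.01% means. Single 0.4% libraries can stand apart, as for miR-10a-5p, where libraries 1 and 3 (312700 and 324400) lie above every 4% library.

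The X-linked cluster of miR-322, miR-503, miR-542, miR-450 and miR-351, whose miR-322 and miR-503 slow the cell cycle in muscle and other cells, had 5 of 8 tested names higher and none lower, against 7.32% higher among all names, with a median log2 fold change of 0.58 and all 8 values positive. miR-542-3p was at 196, 194, 209, 143 and 350 scaled CPM on 0.01% NaCl and 113, 102, 96.9, 126 and 66.7 on 4% NaCl, with no overlap (log2 fold change 1.11 ± 0.24 SE, adjusted p = 0.00613). miR-351-5p, a rat and mouse miRNA with the miR-125 seed, averaged 2787 ± 289 on 0.01% NaCl and 1842 ± 546 on 4% NaCl (log2 fold change 0.60 ± 0.18 SE, adjusted p = 0.0272). miR-322-5p and miR-450a-5p were higher by 0.57 and 0.45 on the log2 scale. The number of higher names fell to 2 without 0.01% library 1, 3 or 5, to 3 without 4% library 3, and to 1 with library totals only.

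All 3 tested names of the neighbouring hairpins miR-181c and miR-181d on chromosome 19 were higher, against 7.32% higher among all names. With library totals only, 1 of the 10 tested names of the miR-181 family was called higher. miR-181d-5p, whose family is known from lymphocyte development, was at 342, 390, 361, 298 and 349 scaled CPM on 0.01% NaCl and 226, 208, 241, 221 and 151 on 4% NaCl. The groups did not overlap, and the log2 fold change was 0.73 ± 0.14 (SE, adjusted p = 0.0029). miR-181c-5p averaged 2285 ± 304 on 0.01% NaCl and 1566 ± 205 on 4% NaCl (log2 fold change 0.55 ± 0.14 SE, adjusted p = 0.0146), and miR-181c-3p moved by 0.56. The 7 other tested names of the family were not called, and they include the far more abundant miR-181a-5p with the same seed, at 17810 ± 2337 scaled CPM on 0.01% NaCl and 16073 ± 1278 on 4% NaCl.

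Among 27 tested names linked to kidney injury and fibrosis, 5 were higher, 3 lower and 19 not called, with a median of 0.37. Among all names 7.32% were higher and 13.1% lower, so the lower count is near that share. The higher names were both arms of miR-21, miR-31a-5p, miR-187-3p and miR-224-5p. miR-31a-5p averaged 98.6 ± 22.0 scaled CPM on 0.01% NaCl and 58.4 ± 16.9 on 4% NaCl (log2 fold change 0.75 ± 0.22 SE, adjusted p = 0.0247). miR-187-3p was at 54.5, 42.2, 39.1, 25.1 and 49.4 on 0.01% NaCl and 24.5, 26.1, 29.3, 23.1 and 14.0 on 4% NaCl, where 4 of the 5 libraries on 0.01% NaCl lay above all on 4% NaCl (log2 fold change 0.84 ± 0.23 SE, adjusted p = 0.0158), and the call was lost without 0.01% library 1. miR-224-5p moved by 0.96 on the log2 scale and stayed called in 9 of the 15 refits without 1 library. The lower names were miR-29c-3p, whose family represses collagen messages, miR-184 and miR-382-5p. miR-29c-3p was at 431, 448, 412, 471 and 463 scaled CPM on 0.01% NaCl and 592, 578, 672, 621 and 833 on 4% NaCl. Its groups did not overlap, and the log2 fold change was -0.57 ± 0.14 (SE, adjusted p = 0.0113). The higher count of this list fell to 2 without 0.01% library 1, to 3 without 0.01% library 3 and to 1 with library totals only, which gave 6 lower. miR-382-5p also stands in the Dlk1-Dio3 list. Outside the lists, miR-466c-5p and miR-879-5p had log2 fold changes of 0.81 and 0.78, both lost their call with library totals only, and in the 15 refits without 1 library the calls held in 8 and 12.

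The Dlk1-Dio3 imprinted cluster, a long run of miRNA genes expressed from the maternal chromosome, had 46 names in the table, and fitted with no filter on low values 23 of the 46 were lower and none higher, against 10.3% lower among all 600 names. The median log2 fold change of the 46 was then -1.17, beside 0.01 over all names. With the filter, 33 were tested and 22 were lower, against 13.1% lower among all tested names. Names could pass that filter through the diets in which they were higher, and 11 of the 22 had a 0.01% mean under 2 scaled CPM while 2 had a 4% mean under it, so the count over the 33 is not a count over the whole cluster. miR-541-5p, its most abundant tested member, was at 88.6, 103, 83.4, 152 and 67.6 scaled CPM on 0.01% NaCl and 236, 195, 146, 253 and 308 on 4% NaCl, where the ranges met at 0.01% library 4 and 4% library 3. miR-411-5p was at 41.5, 54.3, 47.4, 71.2 and 55.8 on 0.01% NaCl and 118, 94.7, 79.5, 143 and 199 on 4% NaCl, with no overlap. The log2 fold changes were -1.20 ± 0.27 (SE, adjusted p = 0.00716) for miR-541-5p, and -1.23 ± 0.23 (SE, adjusted p = 0.0029) for miR-411-5p. The largest decrease among the members was that of miR-494-3p, at 1.53, 1.21, 1.83, 2.32 and 1.31 scaled CPM on 0.01% NaCl and 7.87, 4.74, 5.65, 10.2 and 10.6 on 4% NaCl (log2 fold change -2.23 ± 0.43 SE, adjusted p = 0.00291). Also called were miR-380-3p, miR-667-3p and miR-381-3p (log2 fold changes -1.78, -1.67 and -1.27), and miR-134-5p, miR-300-3p, miR-409b and miR-410-3p, with log2 fold changes of -1.35, -1.29, -1.26 and -1.19.

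In gene order on GRCr8, the 31 tested names from miR-379-5p onward had negative values, 22 of them called. The 2 tested names before them had positive values. Names left out by the filter have no value in this order. Fitted with no filter, 42 of the 46 names in the table had negative values. miR-127-3p, an antisense miRNA to the Rtl1 gene, averaged 35.0 ± 16.5 scaled CPM on 0.01% NaCl and 21.1 ± 4.92 on 4% NaCl, and was not called (adjusted p = 0.119 in edgeR's quasi-likelihood test). Its 0.01% library 5 stood at 64.5, above the other 4. miR-434-3p averaged 5.10 ± 1.04 scaled CPM on 0.01% NaCl and 4.22 ± 0.545 on 4% NaCl and was not called. Whether these 2 names differ from the rest was not tested. Many members were scarce. miR-154-5p, for instance, had 21 reads in all on 0.01% NaCl and 64 on 4% NaCl, and the ratio of 0.292 had a counting interval of 0.169 to 0.484. The summed level of all 46 names in the table, tested or not, was 274.6 to 439 scaled CPM on 0.01% NaCl. It was 454 to 1023 on 4% NaCl, so the sums did not overlap.

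**Figure D3:**
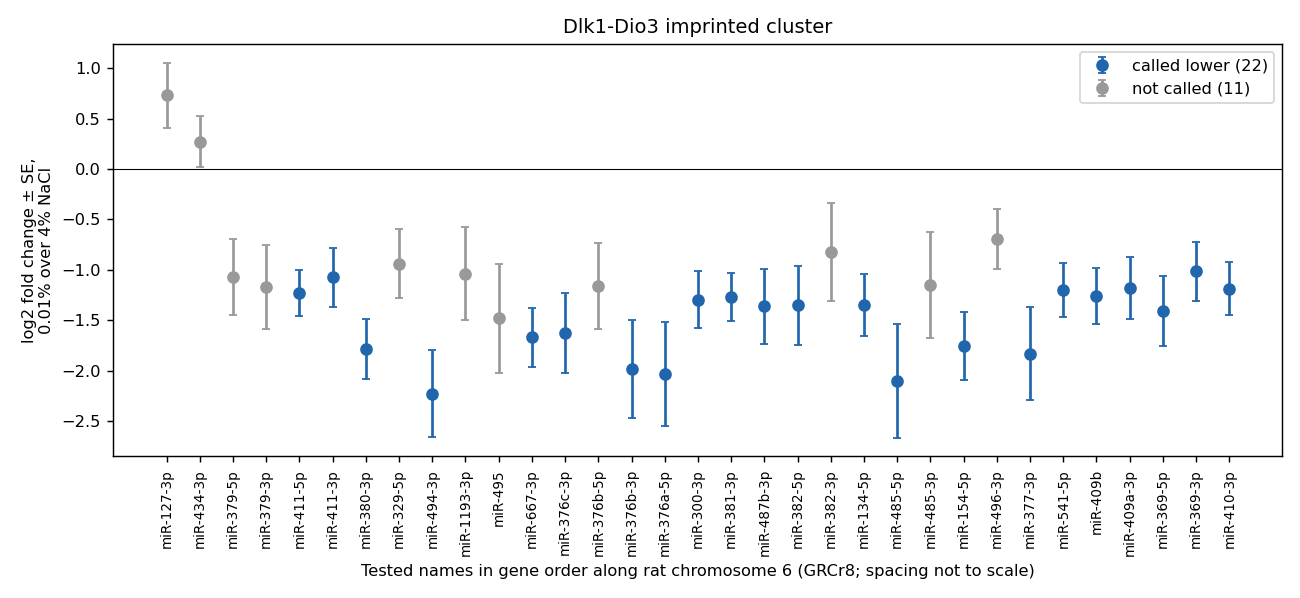
The log2 fold change, 0.01% over 4% NaCl, with bars of 1 SE, of 33 tested names of the Dlk1-Dio3 cluster in gene order along rat chromosome 6 (spacing not to scale). The 22 called names (blue) all lie below 0, and the only values above 0 among these tested names are those of miR-127-3p and miR-434-3p. Names left out by the filter are not shown.

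miR-592 had the largest decrease of the called names other than hco-miR-5941 and miR-219a-2-3p, which had 6 and 1 reads in all on 0.01% NaCl, against 106 and 52 on 4% NaCl. The call of hco-miR-5941 held in 10 of the 15 refits without 1 library and was lost with limma-voom and after thinning, and that of miR-219a-2-3p was also lost with limma-voom. miR-592 was at 1.34, 0.861, 0.333, 0.774 and 0.654 scaled CPM on 0.01% NaCl and 7.34, 5.76, 6.20, 9.14 and 11.7 on 4% NaCl. The 0.01% libraries all lay far below the 4% libraries, with 23 reads in all against 206. The log2 fold change was -3.32 ± 0.40 (SE, adjusted p = 8.68e-05). miR-184, known from the lens and cornea, was at 6.51, 5.68, 5.99, 6.66 and 6.54 scaled CPM on 0.01% NaCl and 28.7, 36.6, 8.93, 38.9 and 22.9 on 4% NaCl. The 0.01% libraries were close together and all lay below the widely spread 4% libraries, and the log2 fold change was -2.11 ± 0.34 (SE, adjusted p = 0.00164).

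miR-489-3p and miR-653-5p, whose genes are neighbours on chromosome 4, were both lower. The remaining tested name of that locus, miR-653-3p, was not called, and among all names 13.1% were lower. miR-653-5p was at 72.5, 72.2, 65.6, 71.9 and 47.8 scaled CPM on 0.01% NaCl and 113, 113, 134, 109 and 164 on 4% NaCl. miR-489-3p was at 12.4, 15.7, 13.3, 12.6 and 12.9 on 0.01% NaCl and 23.6, 24.1, 32.1, 27.6 and 30.6 on 4% NaCl. Neither name's libraries overlapped between the diets. The log2 fold changes were -0.94 ± 0.16 (SE, adjusted p = 0.00164) for miR-653-5p, and -1.04 ± 0.16 (SE, adjusted p = 0.00108) for miR-489-3p. A similar pair of neighbours on the X chromosome, miR-201-5p and miR-3585-3p, was lower, with log2 fold changes of -1.06 and -1.45, and the 3 other tested names of that locus were not called.

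Some lower names were abundant and differed by little. miR-125a-5p, a homolog of worm lin-4, was at 4824, 4928, 4583, 4097 and 4411 scaled CPM on 0.01% NaCl and 6513, 6339, 6391, 5618 and 5957 on 4% NaCl, with no overlap (log2 fold change -0.43 ± 0.08 SE, adjusted p = 0.0029). Its relative miR-125b-5p, with the same seed, was not called, nor were the 8 other tested names of the miR-99, miR-100 and miR-125 list. miR-26a-5p averaged 35235 ± 4447 on 0.01% NaCl and 43240 ± 2882 on 4% NaCl (log2 fold change -0.30 ± 0.09 SE, adjusted p = 0.0282), a call that was lost with DESeq2 size factors, with DESeq2, with the 2 diets alone and after thinning. The bovine name bta-miR-26c kept a nearly fixed ratio to miR-26a-5p in all 15 libraries and is uncertain as a separate measurement.

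**Figure D4:**
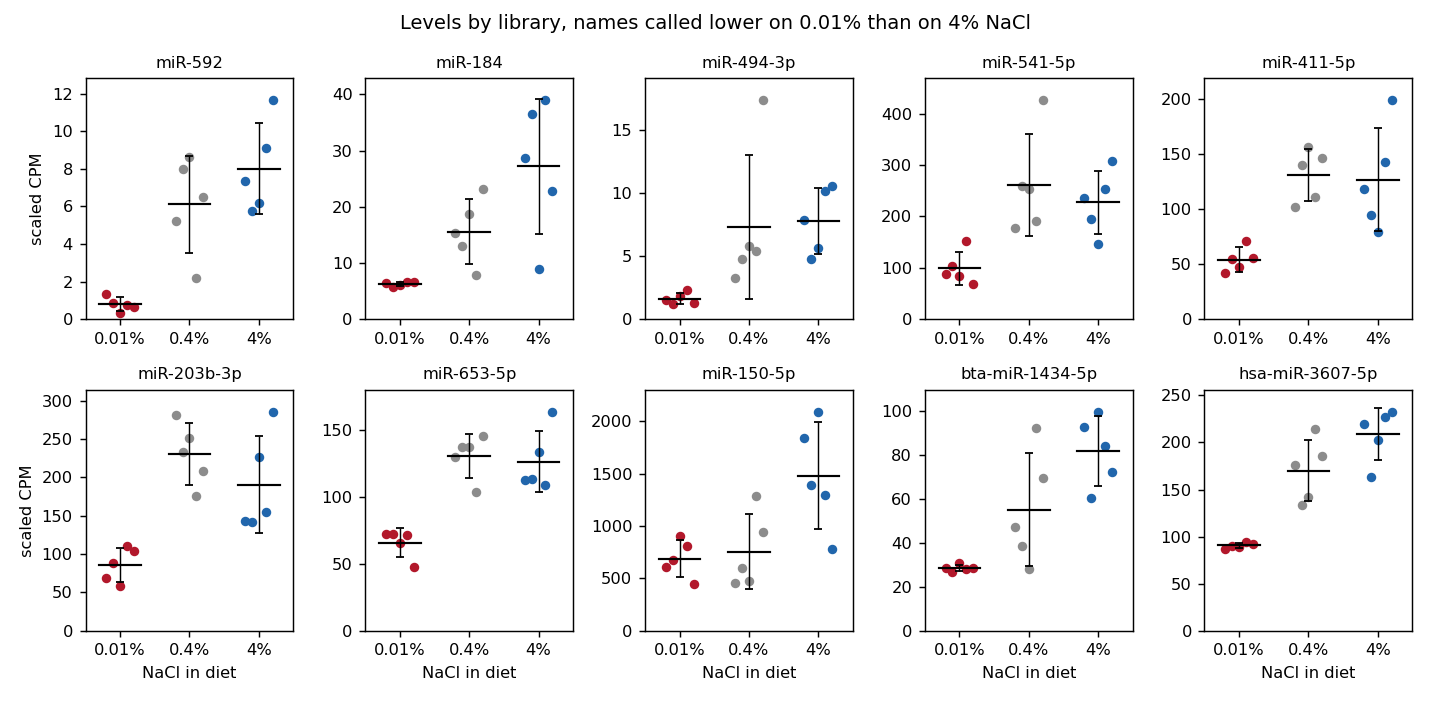
Scaled CPM of 10 names called lower on 0.01% than on 4% NaCl, by diet, with 1 point per library (n = 5 per diet), a line at the mean and bars of 1 SD. miR-592 stands at 0.333 to 1.34 on 0.01% NaCl and at 5.76 to 11.7 on 4% NaCl, and miR-150-5p at 0.4% NaCl lies nearer to 0.01% NaCl than to 4% NaCl.

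Of the lists that mark other cell types, the smooth muscle list of miR-143 and miR-145 had 2 of 4 names higher, and the others are given here beside 20.4% called among all names. Of the 11 tested leukocyte names, miR-150-5p, abundant in mature lymphocytes, was lower and the other 10 were not called. It was at 605, 672, 908, 808 and 448 scaled CPM on 0.01% NaCl and 1844, 1394, 2090, 1298 and 780 on 4% NaCl, with 1 of the 4% libraries inside the 0.01% range (log2 fold change -1.11 ± 0.32 SE, adjusted p = 0.0247). The call was lost without 0.01% library 1 or 5 or without 4% library 3. The summed level of the leukocyte names was 3905 to 5040 scaled CPM on 0.01% NaCl and 2516 to 6053 on 4% NaCl. No call was made among the 5 tested endothelial names, the 4 of red blood cells and the 3 stromal names of miR-199 and miR-214. The sums that follow take every name of a list in the table, tested or not. The red blood cell sum was 428 to 677 scaled CPM on 0.01% NaCl and 315 to 511 on 4% NaCl. The endothelial sum was 10500 to 13084 on 0.01% NaCl and 10067 to 12276 on 4% NaCl. The stromal sum was 3661 to 4063 on 0.01% NaCl and 1589 to 4026 on 4% NaCl. Of the 5 striated muscle names, miR-499-5p was lower (log2 fold change -0.73 ± 0.23 SE, adjusted p = 0.0302), and its call held in 11 of the 15 refits without 1 library. The part of cell composition in any of the differences was not tested.

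Of 25 names linked to polycystic kidney disease, 3 were higher, both arms of miR-21 and miR-30a-5p, and 1, miR-194-5p, was lower, with a median of 0.24. Of 14 names linked to sodium and potassium transport in the tubule, miR-9a-5p and miR-27a-5p were higher, miR-335 and miR-194-5p were lower, and the median was 0.13. Among all names 20.4% were called, so 4 of 25 and 4 of 14 are near that share. miR-335, which lies within the imprinted gene Mest, averaged 4.52 ± 0.784 scaled CPM on 0.01% NaCl and 9.04 ± 2.20 on 4% NaCl (log2 fold change -0.99 ± 0.26 SE, adjusted p = 0.0143). Of the 19 names of miR-17~92 and its paralogs, miR-25-3p was higher and miR-93-3p, from the same primary transcript, was lower (log2 fold changes 0.37 and -0.73), with a list median of 0.30. The call of miR-25-3p held in 11 of the 15 refits without 1 library, that of miR-93-3p in 13 and that of miR-27a-5p in 12. Of the 9 names of miR-23, miR-24 and miR-27, 1 was higher, and of the 6 of the miR-29 family 1 was lower. No name was called in the lists of the let-7 family with miR-98 (18 tested, median 0.03), of miR-15, miR-16 and miR-195 (8 tested, median -0.08), of miR-34 and miR-449 (6 tested, median 0.49), of the miR-183 cluster (4 tested), of miR-210 as a hypoxia name (2 tested) or of miR-204 and miR-211 (1 tested). Together with the endothelial, red blood cell and stromal lists these 9 lists held 51 tested names without a call by edgeR, of which 6 had an unadjusted p under 0.05, DESeq2 called 5 and limma-voom called 1.

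**Figure D5:**
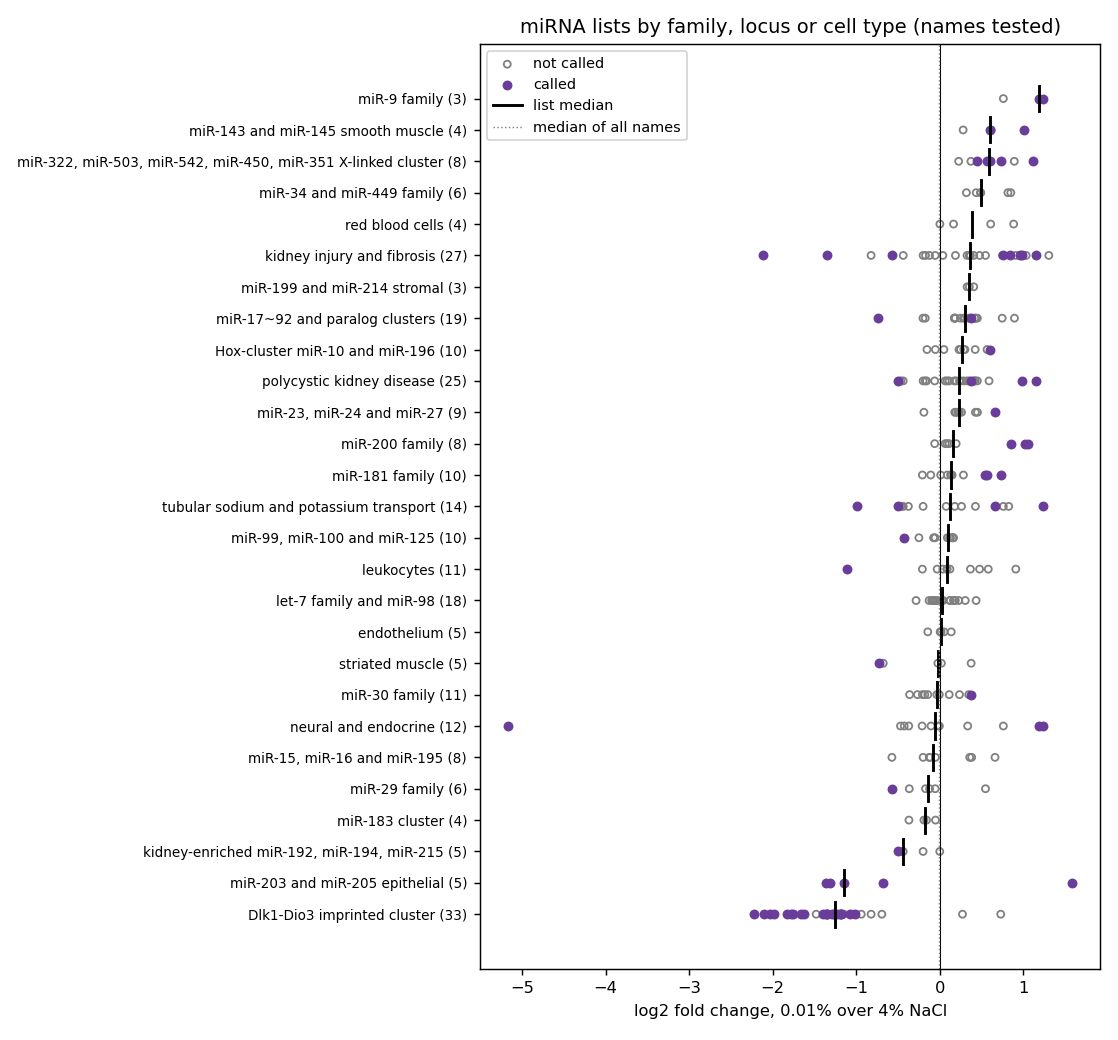
The log2 fold change, 0.01% over 4% NaCl, of each tested name in 27 lists with at least 3 tested names, filled where called, with a bar at the list median and a dotted line at the median of all 519 names. The Dlk1-Dio3 list has the lowest median, -1.26, and the miR-9 family the highest, 1.19.

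Several called names are complementary to another name in the table, and the sources used here do not say whether reads were counted by strand. Among the tested names with a RefSeq sequence, 31 pairs were complementary over at least 15 bases, and in 28 the genes lie on opposite strands. The signs matched in 25 of the 31 pairs. In 4 pairs only 1 name was called, among them pairs of miR-29c-3p and miR-181c-3p. Among all tested names 20.4% were called. In 5 of the 31 pairs both names were called, each time in the same direction, and these are shown with the complementary stretch in capitals.
miR-203a-3p: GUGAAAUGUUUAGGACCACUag
miR-203b-5p: AGUGGUCCUAAACAUUUCAC
miR-203a-5p: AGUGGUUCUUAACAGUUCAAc
miR-203b-3p: UUGAACUGUUAAGAACCACUgg
miR-3578: GCGAAUAUAACACGGUCGAUCU
miR-369-5p: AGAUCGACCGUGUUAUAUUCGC
miR-409a-3p: AAUGUUGCUCGGUGAACCCC
miR-409b: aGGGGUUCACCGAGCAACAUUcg
miR-9a-5p: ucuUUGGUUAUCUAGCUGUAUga
miR-9b-3p: AUACAGCUAGAUAACCAA
miR-369-5p and miR-3578 are complementary over 22 bases, their whole length. They had the same read count in 8 of the 15 libraries. miR-434-3p and miR-3543, neither called, had the same count in 10. Values of such names are uncertain as separate miRNAs. miR-203a-5p and miR-203b-3p had different levels, 9.09 ± 3.95 and 85.9 ± 22.1 scaled CPM on 0.01% NaCl, and 23.5 ± 7.84 and 190.4 ± 63.5 on 4% NaCl. Different levels do not settle whether such names are separate. let-7a-5p and miR-3596a, complementary over 22 bases, averaged 34718 and 157120 reads at a nearly fixed ratio. The SD of the log2 ratio over the 15 libraries was 0.074 for that pair and 0.30 for this miR-203 pair. Whether the miR-203 names were measured separately was not tested. When the scarcer name of each complementary or fixed-ratio pair, 35 in all, was left out, 105 names were called, 40 higher and 65 lower.

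Both arms of a hairpin mostly had the same sign. Both arms were tested for 112 hairpins, and the signs matched in 84. In 8 hairpins both arms were called, and in each of them in the same direction. These were miR-21, miR-141, miR-181c and miR-542, which were higher, and miR-203a, miR-203b, miR-369 and miR-411, which were lower. The arms of miR-203a are complementary to those of miR-203b, and whether these hairpins were measured separately was not tested. In 30 hairpins 1 arm was called, and in 26 of these the other arm had the same sign. Among all 519 names 20.4% were called.

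Names of other species made up 6 of the 38 higher and 19 of the 68 lower names, beside 122 of all 519 tested names. hsa-miR-4454, a human entry that matches transfer RNA, was at 86.3, 65.3, 118, 87.4 and 129 scaled CPM on 0.01% NaCl and 28.5, 35.7, 48.8, 53.5 and 28.3 on 4% NaCl (log2 fold change 1.32 ± 0.31 SE, adjusted p = 0.00928). hsa-miR-3607-5p, a human entry that overlaps a small nucleolar RNA, was at 87.1, 90.4, 89.0, 94.6 and 91.8 on 0.01% NaCl and 220, 163, 203, 227 and 232 on 4% NaCl. It had the smallest p of all tested names, with a log2 fold change of -1.21 ± 0.14 (SE, adjusted p = 8.68e-05). bta-miR-1434-5p was likewise tight on 0.01% NaCl, at 28.7, 26.7, 31.0, 28.0 and 28.5, against 92.9, 60.3, 99.7, 84.0 and 72.3 on 4% NaCl (log2 fold change -1.52 ± 0.26 SE, adjusted p = 0.00164). hsa-miR-1273g-3p and bta-miR-1940 were lower, with log2 fold changes of -2.13 and -2.18. What RNA these reads come from in the rat was not tested. The share of reads under names of other species was 8.05 to 13.5% on 0.01% NaCl and 14.0 to 14.3% on 4% NaCl. The 8.05% was 0.01% library 5, where miR-10a-5p took 40.3% of reads, and the other 0.01% libraries held 11.2 to 13.5%. The share includes bta-miR-3600 and bta-miR-26c, at means of 71052 and 35646 scaled CPM over the 10 libraries. They kept nearly fixed ratios to the rat names miR-22-3p and miR-26a-5p. With rat names only, 92 names were called, 32 higher and 60 lower.

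The 0.4% diet, given here as levels only, lay nearer to the 4% diet for most called names. Its mean was nearer to the 4% mean for 91 of the 106 called names, and for 42 of them it lay beyond the 4% mean. It was nearer to the 0.01% mean for 15 names, 3 higher and 12 lower. For miR-21-5p the 0.4% libraries were at 29790, 23970, 24870, 33100 and 17310 scaled CPM. For miR-592 they were at 5.25, 8.01, 8.63, 2.17 and 6.50. miR-150-5p, at 688 ± 178 on 0.01% NaCl, 755 ± 358 on 0.4% NaCl and 1481 ± 509 on 4% NaCl (mean ± SD, n = 5 each), was among these 15.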

How the data were processed

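Small RNA libraries came from a TruSeq kit and were sequenced on a HiSeq 2000, per the labels' protocols, and cutadapt, Bowtie and DESeq are named in the submitters' processing notes. The sources used here give no versions, genome build, miRNA database, strand setting or rule for reads with several matches. Deposited by the authors were raw read counts per name, a sheet of names, and result tables holding log2 fold changes and adjusted p-values, per the file headers. Those tables' 90 columns of per-sample values were not used.

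Libraries were grouped by diet label. Replicate numbers only name libraries. Every pair of libraries within a diet differed by far more than counting error.

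The counts of all 15 libraries were fitted with edgeR 4.0.16 in R 4.3.3 (filterByExpr, TMM factors, robust quasi-likelihood fit, 1 mean for each of 3 diets, residual degrees of freedom 12). The contrast was 0.01% minus 4% NaCl, adjusted over 519 names, and 81 were left out. Alternatives used DESeq2 1.42.0, limma-voom (limma 3.58.1), other scalings and filters, thinned counts and libraries left out in turn. In simulated counts with this design and 514 names, 86.0% of names changed by 1 on the log2 scale were called, 38.6% of those changed by 0.58, and 4.10% of calls were false. The simulation drew libraries independently, with as many increases as decreases. These shares therefore do not cover calls that depend on the scaling, or libraries that share a pool.

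Members and lists were chosen with earlier results of these data known. A list count set beside the share of all names is therefore a description and not an independent test. Named are the 15 largest increases and decreases among called names with a mean of at least 5 scaled CPM, up to 4 called members of each list by smallest p, called names among the 10 most abundant, hairpins with both arms called and called names with a shared seed. miR-592, hco-miR-5941, miR-494-3p, miR-3578, miR-489-3p, miR-653-5p, miR-201-5p, miR-127-3p, miR-434-3p and miR-3543 were added after their values were seen. Levels of a few names that were not called are given for comparison. Complementary names are tested names whose RefSeq sequences pair over at least 15 bases.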

Additional observations from a re-analysis of the deposited data

Results flagged for a closer look

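In 8 of 136 sets of 5 libraries checked, 1 library stood apart from the other 4 of its diet in scaled CPM. Chance alone marks about 1 set in 20.

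On 0.01% NaCl, library 5 was the highest for miR-127-3p, at 64.5, and for miR-219a-2-3p, at 0.164, which was a single read, and it was the lowest for miR-653-5p, at 47.8. Library 4 was the highest for miR-203a-5p, at 15.9, and library 2 for miR-489-3p, at 15.7. On 4% NaCl, library 5 was the lowest for miR-21-5p, at 9655, and for miR-450a-5p, at 357, and library 3 was the highest for miR-9b-3p, at 54.7.

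miR-653-5p, miR-203a-5p, miR-489-3p and miR-21-5p stayed called in each refit that left out 1 library. miR-219a-2-3p lost its call in 9 of the 15 refits. miR-450a-5p lost it without 0.01% library 1, 3 or 5, and miR-9b-3p without 0.01% library 1 or 5.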

How the results depend on the processing

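The count of 106 called names was 109 with DESeq2 size factors, 110 with upper-quartile factors, 131 with library totals only, 107 without a filter, 82 with a mean of at least 10 CPM, 130 with DESeq2, 104 with limma-voom, 104 without the 5 most abundant names, 110 without robust estimation, 105 with only the 2 diets compared, 92 with rat names only and 90 after thinning to the smallest library. Leaving out the scarcer name of each pair, an alternative added after the data were seen, gave 105. Leaving out each library in turn gave 74 to 123, and 62 called names, 19 higher and 43 lower, were called in all 15 refits. The higher count fell to 21 without 0.01% library 1, and to 24 without 0.01% library 3 or 5. Over 68 named miRNAs and all alternatives, 1729 of 1868 refits kept direction and call, 139 lost the call and 0 reversed. The lower count of the Dlk1-Dio3 list was 19 to 26 with a library left out, and 7 with the filter at 10 CPM, which leaves fewer members to test. No paired analysis was possible because the labels number no replicates and tie no library to an animal or pool. Depth limits the scarce names: 8 named or listed members had so few reads that their ratios carry wide counting intervals.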

Other observations

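In the authors' deposited table made with DESeq2, 134 names passed an adjusted p of 0.05 between these diets, 60 higher and 74 lower on 0.01% NaCl once its sign, which runs 4% over 0.01% NaCl, is turned. Of them, 101 are among the 106 names called here (75.4% of the deposited calls and 95.3% of the calls here). In the authors' deposited table made with edgeR, 108 names passed, 40 higher and 68 lower, and 95 are among the 106 (88.0% and 89.6%). No name called here had the opposite direction in either of the authors' deposited tables.

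The sequences of the called names were alike in base content. Median GC was 45.5% over 29 higher names with a RefSeq sequence, 45.0% over 45 lower names and 47.6% over 283 names that were not called.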
